A study of Mus musculus with 24 samples.

Results

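Rasd2, Odf3l2, Slc15a5 and Morn4 were 4 of the 55401 genes counted in mouse gastrocnemius muscle. They were chosen by their measured counts, for some of the largest differences between adult and young mice, adults being higher, in sham libraries or in burn libraries. The difference between ages is therefore a description here, given without a test. What follows gives the level of each gene in all 12 libraries and asks whether a burn altered it.

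The muscle came from male C57BL6 mice in 4 groups of 3 (young sham and young burn, adult sham and adult burn), with 1 library of poly-A RNA from each mouse. Young mice were obtained at 4 weeks and injured at 5 weeks of age, and adult mice were obtained at 10 weeks and injured at 11 weeks. Burned mice received a scald over 25% of the body surface and fluid resuscitation, and sham mice got neither of these, only the pain relief and anaesthesia common to all groups, so scald and fluid cannot be told apart in the burn comparisons. All muscle was taken 24 h after the procedure. No transgene or deletion was used, and gastrocnemius RNA from whole tissue mixes fibers with every other cell type of the muscle.

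Rasd2, also known as Rhes, is a small GTPase of the Ras superfamily best known from the striatum of the brain, where thyroid hormone is needed for its normal expression and where it acts on G protein and mTOR signaling. Odf3l2 is named for its likeness to the outer dense fiber proteins of the sperm tail. Slc15a5 belongs to the SLC15 family, whose well studied members carry short peptides into cells together with protons. Morn4 carries MORN repeats, short motifs found in proteins that join membranes, and it binds class III myosins. None of the 4 is a classical gene of muscle contraction, and skeletal muscle is not the tissue for which any of them is best known.

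On the GRCm38 build, Rasd2 lay at chr8:75213944-75224113 on the plus strand. Odf3l2 was placed at chr10:79639526-79645738, Slc15a5 at chr6:137983586-138079916 and Morn4 at chr19:42074939-42086357, all on the minus strand. Each is annotated as protein coding and overlapped 0 other annotated genes. Their merged exons span 3.18 kb in Rasd2, 1.25 kb in Odf3l2, 3.09 kb in Slc15a5 and 2.35 kb in Morn4.

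The sequence just before the start of transcription is shown because the 4 genes differed between ages in the same direction, and it lets their starting regions be set side by side. RefSeq windows for the 250 bases before the start, on GRCm38.p6, were at hand for 3 of the 4 genes, and are printed 5′ to 3′ on the strand of the gene. Capitals mark matches to the E-box letters CANNTG, which basic helix-loop-helix factors such as those of the muscle lineage can recognize.
Rasd2 (chr8:75213694-75213943, plus strand): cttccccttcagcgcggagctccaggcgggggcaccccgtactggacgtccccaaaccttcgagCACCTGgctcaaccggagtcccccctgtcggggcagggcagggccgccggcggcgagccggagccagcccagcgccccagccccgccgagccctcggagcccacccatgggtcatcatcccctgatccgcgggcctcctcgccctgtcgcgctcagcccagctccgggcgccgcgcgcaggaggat
Slc15a5 (chr6:138079917-138080166, minus strand): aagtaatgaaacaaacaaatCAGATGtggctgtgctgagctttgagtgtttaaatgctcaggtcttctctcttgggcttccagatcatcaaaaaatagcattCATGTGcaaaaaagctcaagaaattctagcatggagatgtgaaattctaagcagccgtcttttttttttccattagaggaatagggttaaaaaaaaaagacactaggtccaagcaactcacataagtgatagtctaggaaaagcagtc
Morn4 (chr19:42086371-42086620, minus strand): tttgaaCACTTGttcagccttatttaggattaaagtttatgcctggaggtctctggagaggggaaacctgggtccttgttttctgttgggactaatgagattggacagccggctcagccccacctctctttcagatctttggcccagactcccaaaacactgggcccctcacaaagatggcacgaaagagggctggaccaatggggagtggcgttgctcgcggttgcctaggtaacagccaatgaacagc
The 3 windows were unlike in composition. The Rasd2 window held 75.2% G and C, above 96.1% of the 32851 windows of the same length, with 27 CpG dinucleotides. The Slc15a5 window held 37.2% G and C, above 7.31% of all windows, with 1 CpG. Morn4 lay near the middle at 52.0% G and C with 5 CpG, where the median of all windows was 52.4%.
E-box letters occurred once in Rasd2 (CACCTG, first base at -186 from the start), at 2 places in Slc15a5 (CAGATG at -230 and CATGTG at -148) and once in Morn4 (CACTTG at -244), and 66.2% of all windows held such letters. The nuclear receptor letters AGGTCA, held by 14.0% of windows, TATAAA by 12.4%, GGGCGG by 32.7% and the MEF2 motif by 2.92% had no match in the 3 windows. Both strands were searched, no match overlapped another, and a match is a description of letters.

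The libraries held 4392605 to 5688512 counted fragments, 4392605 to 4727802 in adult sham, 5585064 to 5688512 in adult burn, 4393236 to 5029132 in young sham and 4633596 to 5537645 in young burn. The paper's report on RNA quality gave no integrity number for any of the 12 samples. Its highest ratios of large to small ribosomal RNA were in adult sham and its lowest in young sham samples. The part of RNA quality in the differences between ages was not tested. All 12 skeletal muscle markers, among them Acta1, Ckm and Myh4, were detected, with a summed level of 92500 to 186000 CPM over the libraries, CPM being fragments scaled to a fixed total per library. Young burn replicate 2 stood apart from the rest. Its counts differed from those of young burn replicates 1 and 3 with a chi-square per degree of freedom of 34.68 and 25.87, where the other pairs within groups lay between 3.26 and 11.94, so the burn values that rest on it are given with and without it. The totals of all 12 libraries were scaled by edgeR's TMM method with 1 factor for each library, which does not correct differences at single genes. Each group value is a mean ± SD of 3 mice.

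Rasd2 had the highest CPM of the 4 genes in every group. It measured 8.26, 3.03 and 7.05 CPM in young sham replicates 1 to 3, and 8.93, 9.83 and 7.74 in young burn. In adult sham it measured 42.9, 105 and 54.7, and in adult burn 65.3, 63.2 and 57.5. Every adult library thus lay above every young library, the lowest adult value being 4.36 times the highest young value. Group means were 6.11 ± 2.74 in young sham, 8.83 ± 1.05 in young burn, 67.5 ± 32.9 in adult sham and 62.0 ± 4.04 in adult burn. The 3 adult burn mice were close to each other, with a coefficient of variation of 6.51%, whereas that of adult sham mice was 48.7%, with replicate 2 far above the others.

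Odf3l2 measured 5.1, 2.22 and 1.7 CPM in young sham and 2.32, 3.64 and 4.68 in young burn. Adult sham libraries gave 42.2, 21.9 and 14.8, and adult burn libraries gave 20.6, 24.3 and 37.2. The 2 young groups overlapped and the 2 adult groups overlapped, while the lowest adult library held 2.9 times the level of the highest young library. Its means were 3.01 ± 1.83, 3.55 ± 1.18, 26.3 ± 14.2 and 27.4 ± 8.72, with the young groups first and sham before burn.

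Slc15a5 was near the limit of detection in young muscle. Its counts there were 5, 9 and 2 fragments in young sham and 10, 2 and 3 in young burn, which correspond to 1.21, 1.82 and 0.486 CPM and to 1.79, 0.364 and 0.611 CPM. In adult sham 52, 43 and 24 fragments gave 10.7, 9.71 and 5.07 CPM, and in adult burn 48, 46 and 88 fragments gave 8.02, 8.29 and 16.3 CPM. All adult libraries exceeded all young ones, the lowest adult value being 2.79 times the highest young value. Means were 1.17 ± 0.666 in young sham, 0.92 ± 0.76 in young burn, 8.5 ± 3.01 in adult sham and 10.9 ± 4.69 in adult burn.

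Morn4 had the lowest CPM of the 4 genes in adult muscle. Young sham libraries held 7, 8 and 5 fragments, or 1.7, 1.61 and 1.21 CPM, and young burn libraries held 3, 2 and 1 fragments, or 0.536, 0.364 and 0.204 CPM. Adult sham libraries held 20, 19 and 22 fragments, or 4.12, 4.29 and 4.65 CPM, and adult burn libraries held 30, 14 and 31 fragments, or 5.01, 2.52 and 5.73 CPM. The pattern had 3 steps, with young burn lowest, young sham between and both adult groups above. Means were 1.51 ± 0.259 in young sham, 0.368 ± 0.166 in young burn, 4.35 ± 0.27 in adult sham and 4.42 ± 1.69 in adult burn. The lowest adult library, adult burn replicate 2, lay 1.48 times above the highest young library, the narrowest gap of the 4 genes.

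**Figure D1:**
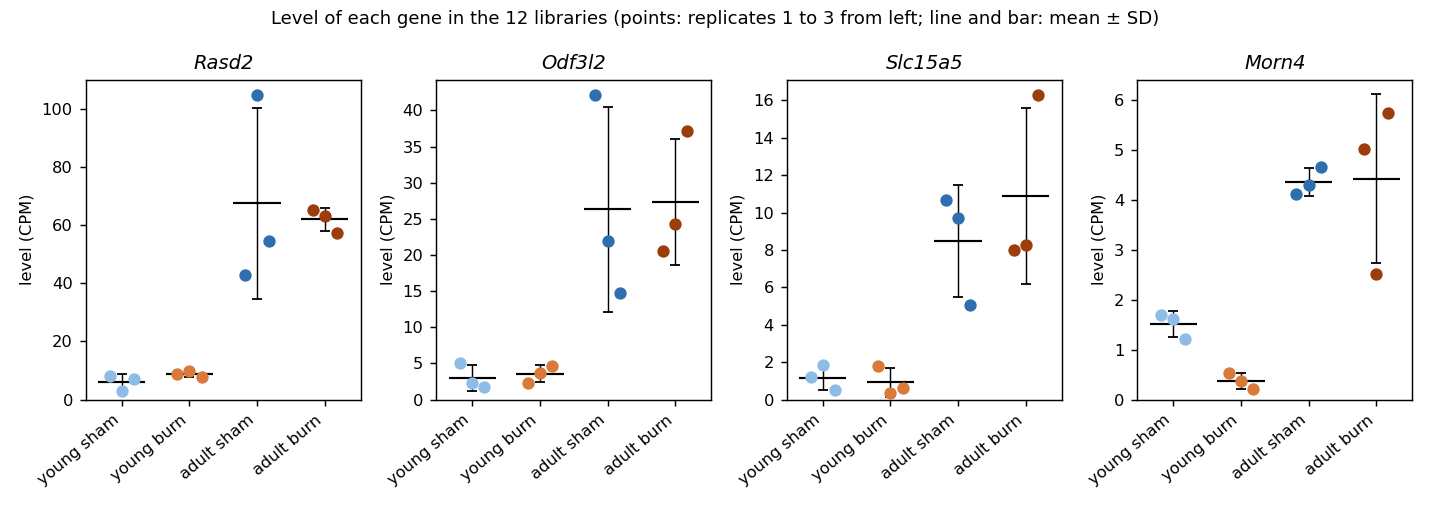
Level in CPM on a linear axis from 0 for each gene (panels) in the 4 groups, with a point for each of the 3 mice and a line with bars for the mean ± SD. In all 4 panels every adult point lies above every young point, sham and burn points of the same age are mixed, and the exception is Morn4, whose young burn points at 0.204 to 0.536 lie below its young sham points at 1.21 to 1.7.

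Divided by exon length, the 4 genes fell into a higher and a lower pair. Rasd2 and Odf3l2 had nearly the same level per kb, 21.2 and 21.1 CPM per kb in adult sham and 19.5 and 21.9 in adult burn. Slc15a5 followed at 2.75 and 3.52 CPM per kb, and Morn4 at 1.85 and 1.88. In young sham the order was Odf3l2 at 2.41, Rasd2 at 1.92, Morn4 at 0.642 and Slc15a5 at 0.38 CPM per kb, and in young burn Odf3l2 at 2.84, Rasd2 at 2.78, Slc15a5 at 0.298 and Morn4 at 0.156. Within the higher pair the difference was below the larger SD over mice in all 4 groups. Within the lower pair it was below that SD in young burn and adult sham and above it in young sham and adult burn.

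The filter on low counts kept all 4 genes, but not by the same libraries. Rasd2 had at least 10 fragments in all 12 libraries and Odf3l2 in all but 1 young sham library. Slc15a5 reached 10 fragments in 0 of 3 young sham and 1 of 3 young burn libraries, and Morn4 in 0 of 3 of either, so these 2 genes passed through their adult libraries.

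Adult means over sham and burn together were 8.67 times the young means for Rasd2, 8.19 times for Odf3l2, 9.25 times for Slc15a5 and 4.67 times for Morn4. In whole tissue, fewer cells of a type and less RNA per cell cannot be told apart. Over all 11720 protein-coding genes tested, 4.22% had every adult library above every young library, a count that the choice of these genes fixes for the 4 of them. In sham muscle alone the fitted log2 difference, adult over young, was 3.48 (SE 0.35) for Rasd2, 3.14 (SE 0.46) for Odf3l2, 2.79 (SE 0.53) for Slc15a5 and 1.51 (SE 0.36) for Morn4. In burned muscle it was 2.81 (SE 0.32), 2.95 (SE 0.43), 3.5 (SE 0.51) and 3.48 (SE 0.44). The burn value was below the sham value by 0.68 for Rasd2 and by 0.19 for Odf3l2, and above it by 0.71 for Slc15a5 and 1.97 for Morn4, which are differences between picked values given without a test. Called at an adjusted p under 0.05 in edgeR's quasi-likelihood test and higher in adults were 1.9% of protein-coding genes in sham muscle and 4.92% in burned muscle.

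Ranked among the 11720 genes, Rasd2 and Odf3l2 held ranks 1 and 2 in sham muscle and Slc15a5 rank 5. Morn4 was at rank 42 there, and it entered through burned muscle, where Slc15a5 and Morn4 held ranks 1 and 2, Odf3l2 rank 4 and Rasd2 rank 9. Rank 3 in both settings was held by Themis3, which is not among the 4, with a log2 difference of 2.89 (SE 0.96) in sham and 3.3 (SE 0.91) in burn at a mean of 0.223 CPM in young and 1.96 CPM in adult muscle. Gm10309, also not among the 4, held rank 4 in sham muscle with 2.88 (SE 1.56), above Slc15a5. After Slc15a5 came 1700001O22Rik at rank 6 with 2.47 (SE 0.41). Ranks 7 to 10 in sham muscle were held by Musk, the receptor kinase of the neuromuscular junction, with 2.43, the homeobox gene Irx3 with 2.35, the actin-related gene Actr3b with 2.31 and Samd10 with 2.29. In burned muscle 1700001O22Rik at rank 5 (2.89), the potassium channel gene Kcnf1 at rank 6 (2.88), Actr3b at rank 7 (2.86), the secreted muscle peptide gene Ostn at rank 8 (2.83) and Chac1 at rank 10 (2.8) lay between and just past the picked genes. Among the first 10 of either ranking 6 genes were shared, namely Rasd2, Odf3l2, Slc15a5, Themis3, 1700001O22Rik and Actr3b. Rasd2, Odf3l2 and Slc15a5 were picked for such differences and both rankings came from the same fit, so the sharing is a description.

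**Figure D2:**
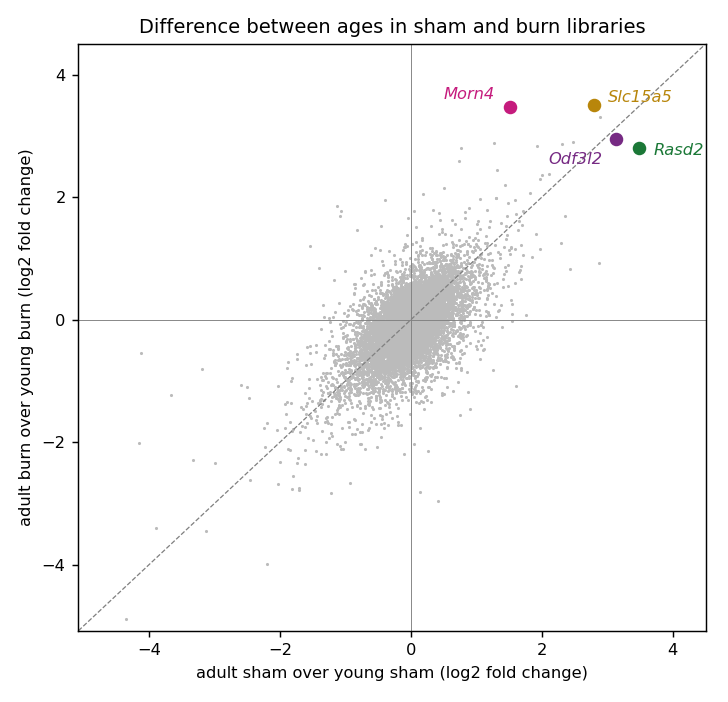
Fitted log2 fold change of adult over young for each of the 11720 protein-coding genes tested (grey points), in sham muscle on the horizontal axis and in burned muscle on the vertical axis, with the 4 genes in color and equal values on the dashed line. The 4 genes lie at the upper right edge, Odf3l2 (3.14 and 2.95) nearest the dashed line, Rasd2 (3.48 and 2.81) below it, Slc15a5 (2.79 and 3.5) about as far above it and Morn4 (1.51 and 3.48) farthest from it.

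Sham and burn libraries overlapped at both ages for Rasd2, Odf3l2 and Slc15a5. The main test took the effect of burn with age held in the model. With equal group sizes and equal spread its estimate would be uncorrelated with the difference between ages in either setting. The spread was not equal, with a coefficient of variation of 6.51% to 48.7% over the groups for Rasd2 and 6.2% to 45.2% for Morn4. The burn term also uses the same libraries, so it is not free of the choice of the genes. None of the 4 was called for this burn term (0 of 4 at an unadjusted p under 0.05 and 0 of 4 by DESeq2), where 0.725% of protein-coding genes were called. The fitted log2 change, burn over sham, was 0.11 for Rasd2 with a 95% interval of -0.39 to 0.61 (edgeR adjusted p = 0.821). It was 0.10 for Odf3l2, from -0.51 to 0.72 (edgeR adjusted p = 0.871), and 0.21 for Slc15a5, from -0.5 to 0.91 (edgeR adjusted p = 0.764). For Morn4 it was -0.43, from -1.13 to 0.27 (edgeR adjusted p = 0.484). The intervals show what these 12 libraries leave possible for a burn change taken over both ages. Within young mice alone the intervals were wider, reaching 1.4 for Rasd2 and 1.46 for Odf3l2. Without young burn replicate 2 the burn term was 0.03, 0.08, 0.29 and -0.32 in the same order, and none was called.

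Within adult muscle, sham and burn libraries overlapped for all 4 genes. The log2 change of adult burn over adult sham was -0.12 for Rasd2 (95% interval -0.72 to 0.48), 0.05 for Odf3l2 (-0.71 to 0.81), 0.35 for Slc15a5 (-0.45 to 1.15) and 0.02 for Morn4 (-0.62 to 0.66). Their edgeR adjusted p-values were 0.948, 0.983, 0.871 and 0.993, none was below an unadjusted p of 0.05, and DESeq2 called 0 of 4. Over all protein-coding genes 0.00853% were called in this comparison. The Rasd2 value turned to 0.35 without adult sham replicate 2, the library with 105 CPM, and was not called then either.

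Within young muscle the log2 change of young burn over young sham was 0.56 for Rasd2 (95% interval -0.28 to 1.4, edgeR adjusted p = 0.436). It was 0.24 for Odf3l2 (-0.98 to 1.46, edgeR adjusted p = 0.84) and -0.36 for Slc15a5 (-1.94 to 1.22, edgeR adjusted p = 0.811). Without young burn replicate 2 these values were 0.50, 0.23 and 0.04, so that of Slc15a5 changed sign. Leaving out each library in turn moved them from 0.21 to 0.85 for Rasd2, from -0.02 to 0.82 for Odf3l2, where the lowest value came without young sham replicate 3, and from -1.28 to 0.13 for Slc15a5, where the highest came without young sham replicate 2. None was called in any of these fits, and the direction of Odf3l2 and Slc15a5 in young muscle is not settled by these libraries. Both comparisons within an age use libraries that also entered the choice of the genes, so they are not independent of it.

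**Figure D3:**
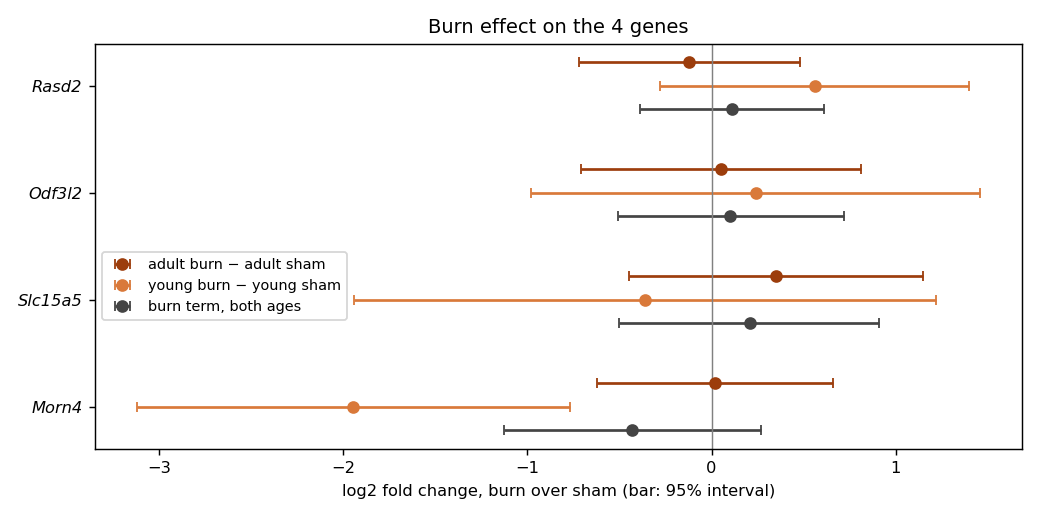
Fitted log2 fold change of burn over sham for each gene in adult mice, in young mice and as the burn term over both ages (points), with 95% intervals (bars) and no change at 0. Of the 12 intervals 11 cover 0, and the exception is Morn4 in young mice at -1.95, from -3.12 to -0.77.

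Morn4 was the gene whose young groups did not overlap. All 3 young burn libraries lay below all 3 young sham libraries, as did 11.1% of protein-coding genes, and the young sham mean was 4.11 times the young burn mean. The log2 change of young burn over young sham was -1.95 (SE 0.55), from -3.12 to -0.77, with an edgeR adjusted p of 0.101 that missed the threshold of 0.05. Over all protein-coding genes 0.0683% were called in this comparison, 20.3% had an unadjusted p under 0.05, as did Morn4 alone among the 4, and 3.15% had an unadjusted p at or below that of Morn4. The difference rested on 20 fragments in young sham and 6 in young burn, for which counting error alone allows a ratio of 1.57 to 12.3 between the groups. It was -1.92 without young burn replicate 2 (edgeR adjusted p = 0.176), and -1.94 with an edgeR adjusted p of 0.0464 where no filter on low counts was set. Adjusted p-values over all alternatives ran from 0.0464 to 0.251. Since Morn4 was picked for its distance between adult burn and young burn, a low level in young burn was part of the choice. The burn effect in adults minus that in young mice, 1.97 (SE 0.62) on the log2 scale, is by its construction the difference of both age distances and is given without a test.

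Summed markers of other tissue contents also differed in range between the same young groups, with 0 genes of these lists called there. Those of macrophages, 8 of 8 tested, ran from 175 to 230 CPM in young sham and from 295 to 486 in young burn. Summed tendon markers, 8 of 8 tested, ran from 466 to 486 CPM in young sham and from 154 to 286 in young burn, and skeletal muscle markers from 138000 to 186000 and from 92500 to 122000 CPM, although Myh1, Myh2 and Mb had higher means in young burn. Schwann cell markers overlapped at 192 to 337 and 144 to 353 CPM. The part of these ranges in the Morn4 value was not tested.

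Markers of cell types for which the genes are better known were read at both ages. Of 10 neuron markers 2 passed the filter, with a sum of 13.4 to 17.4 CPM in young sham, 14.9 to 17.1 in young burn, 9.94 to 14.4 in adult sham and 13.1 to 15 in adult burn. Of 10 testis germ cell markers 6 had any count and 0 passed, with Prm2, Tnp1, Acrv1 and Akap4 at 0 and a sum of 0.546 to 2.68 CPM over all libraries. Motile cilia markers summed to 67.1 to 168 CPM, 108 to 152 in adult sham and 127 to 168 in young sham, of which Tppp3 made up most with group means of 90.6 to 136, while Foxj1, Dnah5 and Dnah9 had 1, 1 and 2 fragments over the 12 libraries. Summed B and plasma cell markers were higher in adults, 60.6 to 113 CPM in adult sham against 31.6 to 57.3 in young sham, and 34.8 to 62.2 in adult burn against 14.2 to 34.6 in young burn. The part of these markers in the adult levels of the 4 genes was not tested.

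The lists of relatives and partners of the 4 genes and of thyroid hormone handling and response held 58 tested genes together. Of these, 1 was called between ages in sham muscle and 7 in burned muscle, beside 3.75% and 11% of all protein-coding genes. The thyroid hormone list gave the call in sham muscle and 5 of those in burned muscle. At an unadjusted p under 0.05 in edgeR there were 15 and 21 of the 58, beside 2365 and 3371 of all 11720 protein-coding genes. DESeq2 called 2 and 9, beside 630 and 1351 of the 11720. Of 24 Ras-like GTPases listed as relatives of Rasd2, 17 were tested, 0 were called between adult and young sham muscle (2 at an unadjusted p under 0.05, 0 by DESeq2) and 1 was lower in adults in burned muscle, where 6.08% of all protein-coding genes were called lower. Their median log2 differences were -0.09 in sham and -0.2 in burn, beside -0.0 and -0.01 over all genes. The gene that fell was Gem, an inhibitor of calcium channels, at -0.97 (SE 0.28, edgeR adjusted p = 0.0388). This call was lost on the omission of 8 of the 12 libraries in turn, and without young burn replicate 2 the list had 4 higher and 2 lower calls in burned muscle. Rheb, the activator of mTOR, was at 134 CPM in adult sham and 119 in young sham, and Hras was at 99.6 and 125. Rasd1, the closest relative of Rasd2, had 91 fragments over the 12 libraries and was not tested. Its mean was 2.29 ± 2.21 CPM in adult sham and 1.4 ± 0.548 in young sham.

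Of 14 genes listed as signaling partners of Rasd2, all tested, 0 were called in sham muscle, beside 3.75% of all protein-coding genes. At an unadjusted p under 0.05 in edgeR there were 6 of the 14, beside 2365 of all 11720 protein-coding genes. DESeq2 called 0 of the 14, beside 630 of the 11720. In burned muscle 1 was lower in adults, where 6.08% of all protein-coding genes were called lower. This was the inhibitory G protein subunit gene Gnai2, at a log2 change of -0.35 (SE 0.11, edgeR adjusted p = 0.0485). Its call was lost on the omission of 10 of the 12 libraries in turn. Among 15 tested genes of thyroid hormone handling and response, 1 was higher in adults in sham muscle, where 1.9% of all protein-coding genes were called higher. This was the retinoid X receptor gene Rxra at 0.75 (SE 0.15, edgeR adjusted p = 0.0155), which was lost without young sham replicate 2 or 3 or adult sham replicate 2 or 3. In burned muscle 5 of the 15 were higher in adults and 0 lower, beside 4.92% and 6.08% of all protein-coding genes. They were Rxra at 0.61, the thyroid hormone receptor gene Thrb at 0.58, the transcription factor gene Klf9 at 0.71, the corepressor gene Hr at 1.3 and the malic enzyme gene Me1 at 0.75, with edgeR adjusted p-values of 0.0198, 0.0211, 0.0254, 0.0102 and 0.00321. The median of this list in burned muscle was 0.48, beside -0.01 over all genes. In sham muscle Thrb, Klf9, Hr and Me1 differed by 0.32, -0.14, 0.73 and 0.16, and none of them was called. The list summed to 939 to 1140 CPM in young burn, 1300 to 1550 in young sham, 1380 to 1550 in adult sham and 1410 to 1610 in adult burn. Between young burn and young sham 8 of the 15 had an unadjusted p under 0.05 in edgeR, beside 20.3% of all protein-coding genes, and 0 were called. The count of 5 depended on single libraries, and it fell to 1 when adult burn replicate 3 was left out and to 2 when adult burn replicate 2 or young burn replicate 3 was, and was 6 without young burn replicate 2.

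Only 2 of 7 outer dense fiber genes, Odf2 and Odf2l, reached a level that could be tested, and neither was called at either burn status. Odf2 held 11.6 CPM in adult sham and 12.2 in young sham, and Odf2l 11.6 and 12.4. The closest namesakes of Odf3l2 were nearly silent, with 0 fragments of Odf3, 7 of Odf3l1 and 26 of Odf3b over all 12 libraries. Of 4 other SLC15 genes 2 were tested and 0 called between ages. Slc15a4, a histidine and peptide carrier of lysosomes, was at 14.6 CPM in young sham, 21.3 in young burn, 18 in adult sham and 35.6 in adult burn, and Slc15a2 was at 11.8, 3.73, 3.88 and 8.65. Of 13 MORN repeat genes 8 were tested and 0 called in sham muscle (3 at an unadjusted p under 0.05, 1 by DESeq2) or in burned muscle (4 at an unadjusted p under 0.05, 0 by DESeq2). Of all 11720 protein-coding genes, 3.75% were called in sham muscle and 11% in burned muscle. At an unadjusted p under 0.05 in edgeR there were 2365 and 3371 of the 11720, and DESeq2 called 630 and 1351. The most abundant were Jph2 and Jph1, which tie the surface membrane to the calcium store of the fiber, at 587 and 436 CPM in adult sham and 443 and 487 in young sham. The class III myosin genes Myo3a and Myo3b, whose products Morn4 binds, had 1 and 3 fragments over all 12 libraries.

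Burn called 0 of these 58 genes, 0 in the burn term and 0 at either age, where 0.725%, 0.00853% and 0.0683% of all protein-coding genes were called, so 0 is near what the background gives. At an unadjusted p under 0.05 there were 16 for the burn term, 3 in adult muscle and 18 in young muscle, beside 19.5%, 6.78% and 20.3% of all protein-coding genes. DESeq2 called 2, 0 and 3 of the 58, beside 360, 8 and 393 of all 11720 protein-coding genes.

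The genes whose pattern over the 12 libraries was most like that of each of the 4 were taken by the root mean square (RMS) difference of their centred log2 CPM, in which 0 is an identical pattern. The nearest to Rasd2 was 1700001O22Rik, an uncharacterized gene, at 0.72, followed by the sphingosine phosphate transporter gene Spns2 at 0.85, Irx3 and Odc1 at 0.86 and the scavenger receptor gene Stab2 at 0.89, where the median over all tested genes was 1.63. The nearest to Odf3l2 were Odc1 at 0.6, 1700001O22Rik at 0.62, Stab2 at 0.73, Themis3 at 0.75 and the complement gene C3 at 0.76, with a median of 1.56. Odc1, which encodes ornithine decarboxylase, was at 74.6 ± 22.3 CPM in young sham, 108 ± 44.1 in young burn, 323 ± 167 in adult sham and 558 ± 187 in adult burn. 1700001O22Rik was at 3.6 ± 0.882, 5.73 ± 0.639, 19.9 ± 5.7 and 42.8 ± 24.0 CPM.

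The nearest to Slc15a5 were the kinase gene Sbk2 at 0.5, Actr3b at 0.54, Amd1 at 0.68, 1700001O22Rik at 0.69 and the transcription factor gene Tfcp2l1 at 0.72, against a median of 1.56. Sbk2 was at 18.3 ± 3.53 CPM in young sham, 13.0 ± 7.96 in young burn, 73.4 ± 30.7 in adult sham and 67.1 ± 31.0 in adult burn. The nearest to Morn4 were Pla2g7, which encodes an enzyme that degrades platelet-activating factor, at 0.44, the glucose transporter gene Slc2a3 at 0.52, Amd1 at 0.54 and Ostn and Kcnf1 at 0.55, against a median of 1.16. Amd1, which encodes S-adenosylmethionine decarboxylase, was at 407 ± 52.3 CPM in young sham, 222 ± 143 in young burn, 1100 ± 184 in adult sham and 1020 ± 254 in adult burn. Ostn was at 8.63 ± 3.62, 2.9 ± 1.69, 33.1 ± 12.7 and 20.9 ± 6.11 CPM and Pla2g7 at 45.4 ± 9.34, 26.2 ± 7.9, 112 ± 15.9 and 104 ± 23.4 CPM, with young burn means below young sham means, a likeness to Morn4 that follows from how they were chosen. Among the 4 themselves the RMS difference was smallest between Odf3l2 and Slc15a5 at 0.64 and between Rasd2 and Odf3l2 at 0.67, and largest between Rasd2 and Morn4 at 1.01.

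Genes next to the 4 on the chromosome were mostly not called between ages. Of their 16 nearest protein-coding genes, 2 on either side of each, 10 passed the filter and 1 was called between adult and young sham muscle (3.75% of all protein-coding genes in either direction). This was Mgst1, a glutathione transferase gene 60.4 kb from Slc15a5, at 74.3 ± 19.5 CPM in adult sham and 38.6 ± 6.45 in young sham, a log2 change of 0.94 (SE 0.21, edgeR adjusted p = 0.0264). It was no longer called when young sham replicate 1 or 3 or adult sham replicate 1 or 2 was left out. In burned muscle 0 of 10 were called, where 11% of all protein-coding genes were. At an unadjusted p under 0.05 in edgeR there were 4 of the 10, beside 3371 of all 11720 protein-coding genes. DESeq2 called 0 of the 10, beside 1351 of the 11720. Shc2, 1.61 kb from Odf3l2, differed by 0.8 (SE 0.28) in sham and 0.49 (SE 0.25) in burned muscle. Hoga1 and Pi4k2a, which flank Morn4 at 3.99 kb and 4.11 kb, differed by 0.33 (SE 0.51) and 0.19 (SE 0.16) in sham muscle and by 1.17 (SE 0.46) and 0.41 (SE 0.15) in burned muscle. None of these 3 was called. The nearest gene of any type to Odf3l2, the noncoding Gm47163 that starts 6 bases away on the other strand, had 36 fragments over the 12 libraries and 0 to 8 in each.

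**Figure D4:**
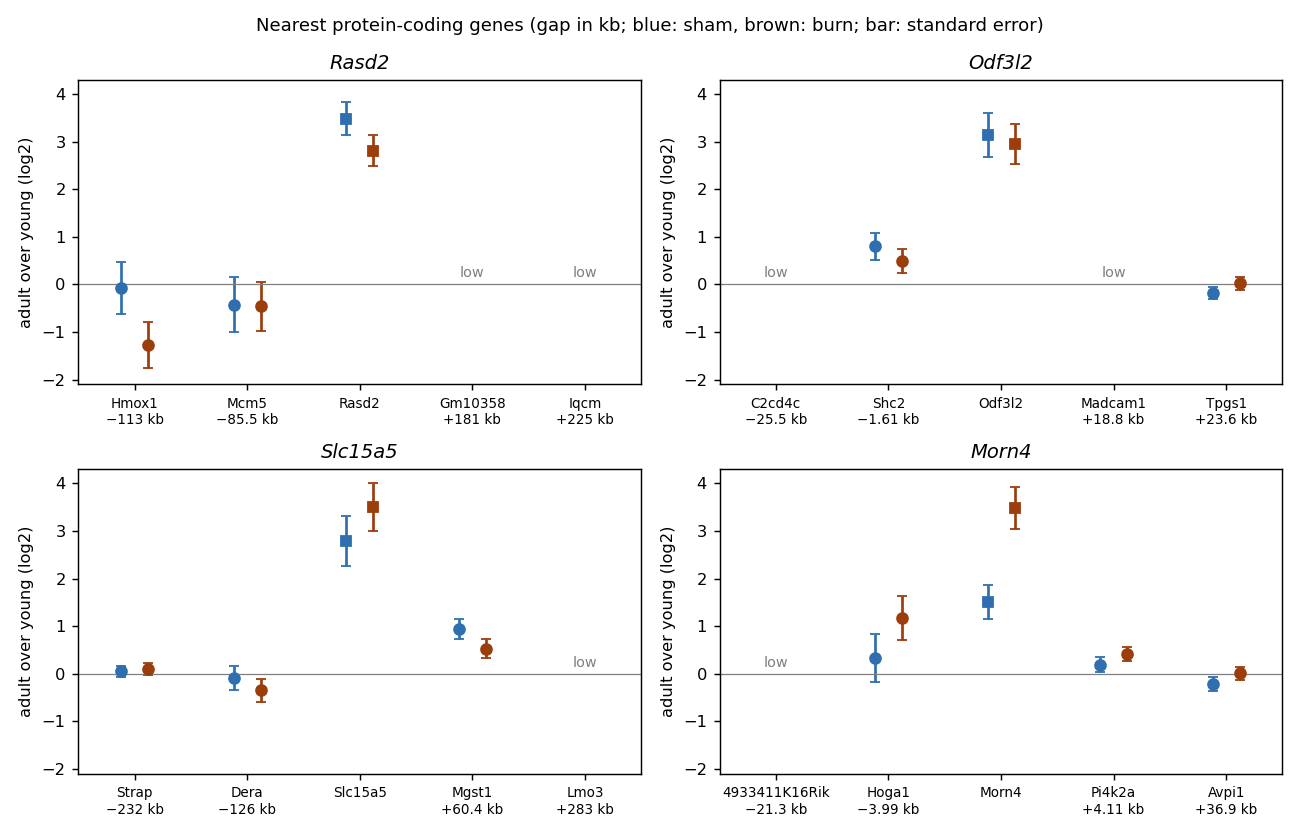
Fitted log2 fold change of adult over young (points) with its SE (bars) in sham muscle (blue) and burned muscle (brown) for each of the 4 genes (squares) and its 2 nearest protein-coding genes on either side (circles), with the gap in kb under each name and "low" for genes below the filter. The squares lie between 1.51 and 3.5, and no neighbour exceeds 1.17.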

How the data were processed

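Gastrocnemius RNA of 12 mice was sequenced as poly-A libraries, paired-end on a NextSeq instrument. The authors aligned the reads to GRCm38 with STAR (version 2.7.5c in the submitters' notes) and deposited raw counts per Gencode M25 gene from its GeneCounts option, unnormalized, as fragments. Gene names, types, coordinates and exon lengths were taken here from Gencode M21, in which 260 of the 55401 counted genes had no match. Which strand was counted was not given in the sources used here. Small RNA libraries of the same mice were not used here.

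Groups were taken from the sample labels. The 4 genes and all gene lists were chosen with earlier results of these data known, so no list is independent evidence. In R 4.3.3, edgeR 4.0.16 filtered genes (filterByExpr, minimum count 10, minimum total count 15), which left 12408 genes, 11720 of them protein coding, scaled libraries by TMM and fitted quasi-likelihood models. All tests were two-sided, p-values were adjusted by Benjamini-Hochberg across every gene that passed, and calls were made below an adjusted p of 0.05. The burn term was fitted with age as a covariate, and group contrasts in a model of 4 group means. Levels per kb divide CPM by merged exon length. Pattern likeness used log2 CPM with a prior count of 2. Named were the 4 genes, up to 4 of the most abundant genes of each list with those called, the 2 nearest protein-coding genes on either side, the 5 genes of most similar pattern and the 10 largest differences between ages. Untested namesakes and partners (Rasd1, Odf3, Odf3l1, Odf3b, Myo3a, Myo3b) and Gm47163 were named after their values were seen.

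Alternatives were DESeq2 1.42.0, scaling by library size alone, no filter, a replicate block, limma 3.58.1 (voom) for the burn term, fits of 2 groups alone and the omission of each library. The fitting was tested on simulated data. With 3 mice a group, precision is set by the spread between mice, and intervals on fragment numbers, at 95%, cover counting error only. Each library came from its own mouse.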

Additional observations from a re-analysis of the deposited data

Results flagged for a closer look

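Rasd2 drew attention because its burn values went opposite ways at the 2 ages. Every adult burn library (57.5 to 65.3 CPM) lay below the adult sham mean of 67.5 CPM, and every young burn library (7.74 to 9.83 CPM) lay above the young sham mean of 6.11 CPM. The burn effect in adults minus that in young mice was -0.68 (SE 0.48) on the log2 scale. This difference was not tested, since it equals the difference of both age distances that picked the gene, and single sham libraries of both ages overlapped with the burn libraries. The adult sham mean rested on replicate 2 at 105 CPM, the other adult sham libraries (42.9 and 54.7 CPM) lay below every adult burn library, and without replicate 2 the adult burn effect was 0.35, the same direction as in young mice. Leaving out 1 library at a time moved the burn effect in adults minus that in young mice between -0.96 and -0.21.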

How the results depend on the processing

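The burn comparisons of Rasd2, Odf3l2 and Slc15a5 were not called under any alternative run. In 21 of 503 recomputed values a small uncalled effect changed sign, none of them beyond 0.35 in size. Adjusted p-values of the burn term ran from 0.217 to 0.999 for Rasd2, 0.358 to 0.968 for Odf3l2, 0.655 to 0.987 for Slc15a5 and 0.29 to 0.695 for Morn4, and those within adult muscle from 0.683 to 1.0 over the 4 genes. Morn4 in young mice was called with no filter on low counts (-1.94, adjusted p = 0.0464) and under no other alternative. DESeq2 gave it an unadjusted p of 0.00703 and no adjusted p, and it could not be fitted in the 2 young groups alone, where it fell below the filter.

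The counts of called protein-coding genes, which serve as background, moved far more. With DESeq2 they were 360 for the burn term (main count 85), 8 within adult muscle (1), 393 within young muscle (8) and 5 for the difference of burn effects (0). With library size alone they were 41 for the burn term and 605 within young muscle. With no filter they were 1083 for the burn term, 260 in adult muscle, 1017 in young muscle, 921 between sham groups (439) and 105 for the difference of burn effects. With the 2 groups alone they were 110, 1, 1101 and 304 for adult muscle, young muscle, sham groups and burn groups (1290 in all libraries). The cause was not tested. Leaving out 1 library at a time gave 4 to 265 for the burn term, 1 to 110 in adult muscle, 1 to 656 in young muscle, 87 to 1410 between sham groups, 373 to 2512 between burn groups and 0 to 12 for the difference. Without young burn replicate 2 these were 258, 110, 81, 1410, 2512 and 12. Under library size alone the median of all genes shifted by 0.257 in young muscle, 0.142 between sham groups and -0.122 between burn groups, and 437 of 568 calls between sham groups were higher in adults, against 223 of 439 with TMM.

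Leaving out 1 library at a time gave age distances, whose sign the choice of the genes fixes, of 3.02 to 3.77, 2.62 to 3.72, 2.45 to 3.28 and 1.39 to 1.59 in sham and 2.72 to 2.88, 2.67 to 3.19, 3.09 to 4.42 and 3.23 to 3.83 in burned muscle, in the order Rasd2, Odf3l2, Slc15a5 and Morn4. The difference of burn effects ran from 0.22 to 1.63 for Slc15a5 and from 1.72 to 2.32 for Morn4. The replicate block gave 79 calls for the burn term, 3 within adult muscle, 9 within young muscle, 322 between sham groups and 1120 between burn groups, and called none of the 4 genes in a burn comparison. Deviations of same-numbered libraries correlated from -0.1968 to 0.153, and 3 of 18 pairs were above 0.1. Those of libraries with different numbers ran from -0.1866 to 0.2064, with 5 of 36 pairs above 0.1. No pairing by replicate number was seen, but with 3 mice a group these values cannot exclude it.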
